A study of Mus musculus with 4 samples.

Results

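This account describes 10 integrin genes in Langerhans cells of mice: Itgae, Itgb7, Itgax, Itgam, Itgal, Itgb2, Itga4, Itga6, Itgb1 and Itgav. Every probe set that the platform annotation assigns to exactly 1 of these symbols was taken and is given separately, which made 20 probe sets of the 22626 on the array. Of these, 10 probe sets, representing 8 genes, lay at or above the 40th percentile of mean log2 signal and entered the fit over 13576 probe sets. Itgam, with 1 probe set, and Itga6, with 2, had no probe set above that filter. The array as a whole holds 12393 genes with such a probe set. The genes were selected on values of these same arrays, Itgb7 having been seen to read lower on both TCDD arrays. The TCDD differences of the 10 genes are therefore given as a description. Tests of these 10 genes are limited to the difference between the 2 preparations of cells, whose direction the choice did not use. For Itgb7 the choice still fixed that the preparations overlap, and it can bear on the error.

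Gene expression was measured with 4 one-colour Affymetrix arrays, 1 per sample. In the TCDD group, mice received 10 µg of 2,3,7,8-tetrachlorodibenzo-p-dioxin, which activates the aryl hydrocarbon receptor (AhR), in 100 µl of an oil vehicle, which the label of TCDD 2 gives as DMSO and oil. TCDD 1 names no skin site and TCDD 2 comes from back skin. In the control group, control 1 received 100 µl of DMSO and olive oil and names no skin site, and control 2 comes from back skin. Per the series' design, injection was intraperitoneal, isolation followed 24 h later, and the sort reached 95% purity, so other cells of the skin can make up the rest. The sources used here give no mouse strain, sex, age or pooling. Control 2 is a control by its title and description, but its treatment protocol names TCDD, so the TCDD differences of the members are also given without it.

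Integrins are receptors for matrix and for other cells, each built from an alpha and a beta chain. The alpha E chain (Itgae, CD103) pairs with beta 7 (Itgb7) and binds E-cadherin on epithelial cells. In mice this pair is known from T cells of epithelia, including the dendritic epidermal T cells, and from langerin-positive dendritic cells of the dermis, whereas Langerhans cells are known to carry little CD103. Beta 2 (Itgb2, CD18) pairs with the alpha chains L (Itgal, CD11a), M (Itgam, CD11b) and X (Itgax, CD11c) of leukocytes and binds intercellular adhesion molecules and complement fragments. Alpha 4 (Itga4) pairs with beta 1 or beta 7, alpha 6 (Itga6) with beta 1 as a laminin receptor, and alpha V (Itgav) with several beta chains as a receptor for vitronectin, fibronectin and latent TGF-beta.

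The sequences around the start sites are shown for Itgb7 and Itgax, the tested members that read lower on both TCDD arrays, and for Itga4, whose product is another partner of beta 7. RefSeq sequences (GRCm38.p6) covering 250 bases before and 50 after the start were matched for 6 of the 10 members (Itgb7, Itgax, Itga4, Itgam, Itgb1 and Itgav). They were searched on both strands for GCGTG, the core that AhR and ARNT bind, for GAGGAA, a core of the myeloid factor PU.1, and for TGTGGT, a core of RUNX factors. The windows are chr15:102231886-102232185 on the minus strand for Itgb7, chr7:128129300-128129599 on the plus strand for Itgax and chr2:79255176-79255475 on the plus strand for Itga4. Each runs 5′ to 3′ along its gene, and capitals mark the matches.
Itgb7: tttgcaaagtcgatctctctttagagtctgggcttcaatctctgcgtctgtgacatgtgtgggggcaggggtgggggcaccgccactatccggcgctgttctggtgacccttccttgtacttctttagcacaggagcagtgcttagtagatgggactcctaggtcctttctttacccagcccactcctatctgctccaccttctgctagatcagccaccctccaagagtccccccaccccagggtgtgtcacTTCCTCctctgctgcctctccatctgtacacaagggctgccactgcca
Itgax: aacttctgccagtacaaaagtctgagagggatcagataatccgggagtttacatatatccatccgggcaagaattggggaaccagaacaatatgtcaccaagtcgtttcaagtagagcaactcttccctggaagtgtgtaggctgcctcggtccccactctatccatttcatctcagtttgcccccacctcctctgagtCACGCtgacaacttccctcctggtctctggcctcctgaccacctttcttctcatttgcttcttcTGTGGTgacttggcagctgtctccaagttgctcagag
Itga4: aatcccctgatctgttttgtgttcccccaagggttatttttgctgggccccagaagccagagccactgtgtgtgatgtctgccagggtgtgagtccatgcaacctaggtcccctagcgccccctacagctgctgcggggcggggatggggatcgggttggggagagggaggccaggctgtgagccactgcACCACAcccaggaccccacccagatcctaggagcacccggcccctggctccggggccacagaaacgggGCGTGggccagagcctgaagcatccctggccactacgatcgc

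GCGTG, or its complement CACGC, occurred in 2 of the 6 member windows, those of Itgax and Itga4, and in 32.4% of 32851 windows of the same length. The Itgb7 window above holds none of these letters and 1 match to GAGGAA, written as TTCCTC on the strand shown. GAGGAA occurred in 4 of the 6 windows, with 3 matches at Itgam, 2 at Itgav and 1 each at Itgb7 and Itgb1, and in 28.3% of all windows. TGTGGT occurred in 2 of the 6, again Itgax and Itga4, and in 16.8% of all windows. No 2 matches overlapped in the member windows. These are matches of letters only. On the genome, Itgam and Itgax are neighbours with 0 protein-coding genes between them, and 35 lie between Itgal and Itgam.

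Of 12 listed markers of Langerhans cells, 11 lay above the filter, and only Dpp4 lay below it. Cd207 (langerin) read 5343 and 2155 on TCDD 1 and 2 and 2120 and 7210 on controls 1 and 2, and Epcam read 7541 and 8362 after TCDD and 8717 and 10030 in the controls. Csf1r, the receptor that maintains these cells, read between 8469 and 11700. The median signal of an array was 180.8 and 172.8 on TCDD 1 and 2 and 164.9 and 188.1 on controls 1 and 2. RNA quality differed: for actin, the 3′ control probe set exceeded the 5′ one by a factor of 3.48 and 7.71 on TCDD 1 and 2 and 49.7 and 4.64 on controls 1 and 2. Its part in the integrin values was not tested.

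Itgb7, the beta chain of the pair with alpha E, read 72.4 on TCDD 1 and 136.3 on TCDD 2, against 167.1 on control 1 and 364.9 on control 2. Both TCDD arrays lay below both controls, and the log2 difference, TCDD minus control, was -1.31 ± 0.41 (SE from limma, n = 2 per group), a geometric mean 0.402 times that of the controls. By preparation, the log2 ratio of TCDD to control was -1.42 in back skin and -1.21 where no site was named. TCDD 2 and control 1 lay closest to each other, and control 2 stood highest, 1.13 above control 1 on the log2 scale. In fits without 1 array, which also drop the preparation term, the log2 difference was -0.75 without control 2, the array with conflicting labels, -0.86 without TCDD 1, -1.77 without TCDD 2 and -1.88 without control 1. These values had been seen when the gene was chosen and carry no test. Itgb7 lay at the 28.7th and 43.5th percentile of all probe sets on TCDD 1 and 2, against the 50.4th and 67.5th on controls 1 and 2. Its geometric mean after TCDD, 99.34, was below the filter level of 115.4, and that of the controls, 246.9, above it. In sorted cells of this kind, fewer cells of a type and less RNA per cell cannot be told apart.

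Itgae, the alpha chain of the same pair, had groups that overlapped. It read 165.8 on TCDD 1 and 100.5 on TCDD 2, against 149.2 on control 1 and 142.8 on control 2. TCDD 1 was the highest of the 4 arrays and TCDD 2 the lowest, so neither group lay to one side. The log2 difference was -0.18 ± 0.45 (SE, n = 2 per group), with log2 ratios of -0.51 in back skin and 0.15 where no site was named. Without TCDD 2 it was 0.18. On the 4 arrays Itgae lay between the 35.7th and the 47.6th percentile of all probe sets, near the lower edge of the signals that entered the fit.

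**Figure D1:**
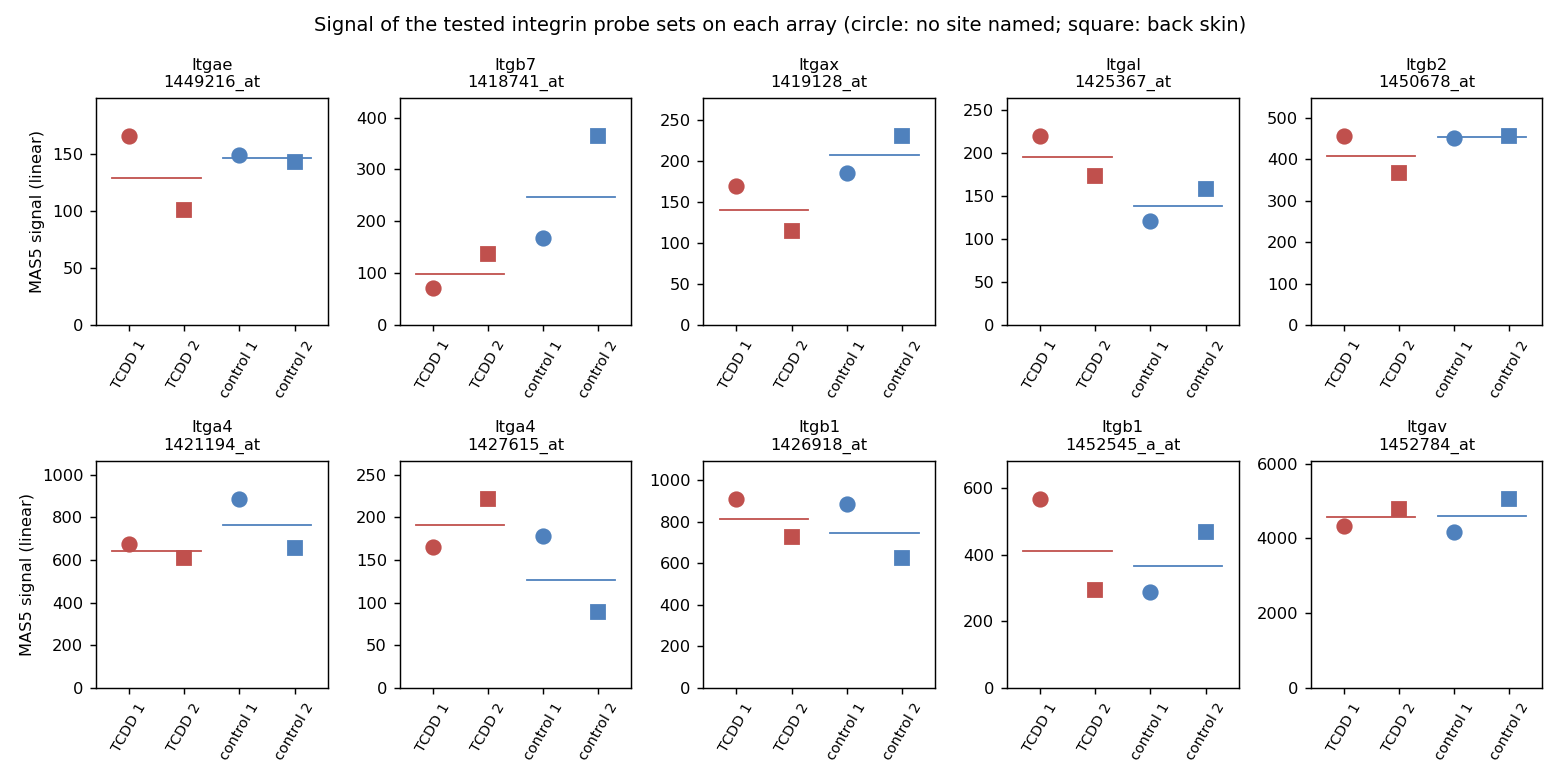
MAS5 signal (linear axis from 0) of the 10 tested integrin probe sets on each array, with TCDD arrays in red and controls in blue, circles for arrays with no site named, squares for back skin, and a line at each group's geometric mean. For Itgb7 both TCDD arrays (72.4 and 136.3) lie below both controls (167.1 and 364.9), whereas the groups overlap for Itgae and Itgav.

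Among the beta 2 integrins, Itgax (CD11c), the alpha chain used to mark dendritic cells, read 169.6 on TCDD 1 and 115.3 on TCDD 2, against 185.4 on control 1 and 230.7 on control 2. Both TCDD arrays lay below both controls, with a log2 difference of -0.56 ± 0.42 (SE, n = 2 per group). The gap was narrow with no site named, a log2 ratio of -0.13, and wider in back skin, -1.0. Without TCDD 2 the log2 difference was -0.29.

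Itgal (CD11a), the alpha chain of LFA-1, read 220.4 on TCDD 1 and 173.5 on TCDD 2, against 121.4 on control 1 and 158.6 on control 2. Both TCDD arrays lay above both controls, and the log2 difference was 0.49 ± 0.42 (SE, n = 2 per group), with 0.13 in back skin and 0.86 where no site was named. It was the only tested probe set of the 10 with that arrangement, and its value was 0.30 without control 1.

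Itgb2 (CD18), the beta chain shared by CD11a, CD11b and CD11c, read 456.8 and 366.4 on TCDD 1 and 2, against 450.5 and 456.6 on controls 1 and 2. TCDD 2 was the lowest array and the other 3 lay close together. The log2 difference was -0.15 ± 0.34 (SE, n = 2 per group), and 0.01 without TCDD 2. The alpha chains Itgax and Itgal differed in opposite directions on the log2 scale while their common beta chain overlapped between groups.

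Itgam (CD11b), the alpha chain of the complement receptor CR3, was below the filter and was not tested. It read 8.9 and 15.3 on TCDD 1 and 2, against 37.1 and 20.8 on controls 1 and 2. On TCDD 1, TCDD 2 and control 2 these signals lay below the array's 20th percentile (39.3, 39.2 and 40.6), and control 1 lay just above its own (36.6). Both TCDD arrays lay below both controls, but no fold is given for signals this low.

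Itga4 was covered by 3 probe sets that disagreed. The brightest, 1421194_at, read 673.7 and 611.4 on TCDD 1 and 2, against 888.6 and 658.4 on controls 1 and 2, a log2 difference of -0.25 ± 0.34 (SE, n = 2 per group). Probe set 1427615_at read 165 and 222.2 after TCDD, against 178.1 and 89.4 in the controls, a log2 difference of 0.60 ± 0.48. In both probe sets the groups overlapped, and the signs of the differences were opposite. The third, 1450155_at, was below the filter with 22.9 and 95.1 after TCDD, against 7 and 81.4 in the controls.

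Itgb1, the beta chain of most matrix-binding integrins, was covered by 6 probe sets, of which 2 were tested. Probe set 1426918_at read 911.4 and 725.4 on TCDD 1 and 2, against 886.3 and 624.8 on controls 1 and 2, a log2 difference of 0.13 ± 0.34 (SE, n = 2 per group). Within each preparation the TCDD array was slightly the higher, but the groups overlapped. Probe set 1452545_a_at read 569.1 and 295.2 after TCDD, against 287.9 and 468.2 in the controls, with log2 ratios of -0.67 in back skin and 0.98 where no site was named.

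The other 4 Itgb1 probe sets lay below the filter and read between 9.7 and 117 on all arrays. The probe sets 1426920_x_at and 1427771_x_at, whose ending marks probes that can also bind other transcripts, were higher on both TCDD arrays than on both controls. Probe set 1427771_x_at read 67.8 and 52.4 after TCDD, against 12.6 and 25.4 in the controls. Probe set 1438119_at had the opposite order of means, with 9.7 and 93.7 after TCDD, against 75.6 and 55.5 in the controls.

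Itgav, covered by 3 probe sets, had the smallest spread between arrays of the tested members. Its brightest probe set, 1452784_at, read 4339 and 4799 on TCDD 1 and 2, against 4169 and 5068 on controls 1 and 2, a factor of 1.22 between the highest and the lowest array. The log2 difference was -0.01 ± 0.32 (SE, n = 2 per group). The other probe sets were below the filter: 1421198_at read 65.7 and 92.8 after TCDD, against 79.2 and 81.2 in the controls, and 1432296_a_at read 36.4 and 51.5, against 36.4 and 129.3.

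Itga6, the alpha chain of a laminin receptor of basal keratinocytes, was not above the filter by either probe set. Probe set 1422444_at read 8.5 and 7.8 on TCDD 1 and 2, against 7.9 and 7.2 on controls 1 and 2. Probe set 1422445_at read 23.4 and 44.5 after TCDD, against 51.5 and 13.9 in the controls. Only control 1 and TCDD 2 of this second probe set exceeded the 20th percentile of their arrays.

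Over the 10 tested member probe sets, 2 (Itgb7 and Itgax) had both TCDD arrays below both controls, against a background of 13.2% of the 13576 tested probe sets. In the other direction it was 1 (Itgal), against a background of 12.4%. In 5 of the 10 the 2 preparations gave log2 ratios of opposite sign, against 59.3% of all tested probe sets. Nothing is read from these counts, since this contrast was used in choosing the genes. The median log2 difference was -0.08 over the 10 and -0.01 over all tested probe sets. In the fit over all probe sets, 0 of 13576 (0%) passed an adjusted p under 0.05 for TCDD against control (limma), and 199 (1.47%) had an unadjusted p under 0.05. With 3 arrays the preparation term has to be dropped as well, and 1 group then holds a lone array. In such fits the number of probe sets that passed moved away from 0 without control 2 and without control 1. Without control 2 the only control is control 1, whose actin 3′ to 5′ factor was 49.7, the highest of all arrays. With all arrays kept and only the preparation term dropped, 0 probe sets passed for TCDD (limma, adjusted p under 0.05). In that fit 220 had an unadjusted p under 0.05. Leaving out an array while keeping the preparation term was not tested.

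Without control 2, whose labels conflict, and without the preparation term, the brightest probe set of each tested member gave these log2 differences, TCDD minus control. They set both TCDD arrays against control 1 alone, the array with an actin 3′ to 5′ factor of 49.7. Signs turned for Itgb1 (-0.12, against 0.13 with all arrays) and for Itgav (0.13, against -0.01). Itga4 read -0.47, against -0.25 with all arrays, and Itgal 0.69, against 0.49. Itgax was at -0.41, Itgae at -0.21 and Itgb2 at -0.14, each with the sign it had on all arrays. Itgb7, given above, stayed the lowest at -0.75.

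**Figure D2:**
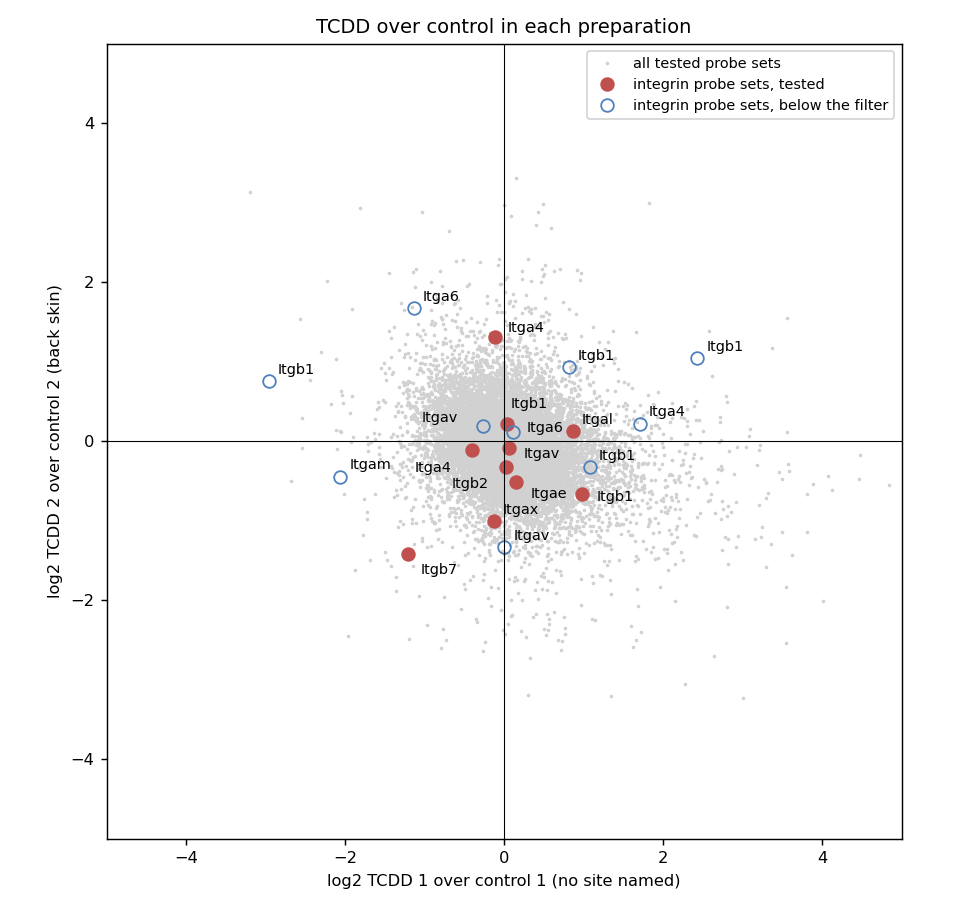
Log2 ratio of TCDD to control in back skin (vertical axis) and where no site was named (horizontal axis), each from 1 pair of arrays, for all 13576 tested probe sets (grey), the 10 tested integrin probe sets (red) and the 10 below the filter (open blue circles). Itgb7 lies at -1.42 on the vertical and -1.21 on the horizontal axis, and the other tested integrin probe sets lie closer to the centre on at least 1 axis.

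Of all tested probe sets, 9 (0.0663%) were lower after TCDD in both preparations by at least the smaller of the Itgb7 ratios, Itgb7 among them. Itgb7 was chosen on this contrast and set the threshold, so nothing is read from this share. By Euclidean distance between mean-centred log2 values over the 4 arrays, the patterns most like Itgb7 among 12416 probe sets with 1 symbol were those of Il1f10, Tsnaxip1, Bves, Hkdc1 and Eif4b. Il1f10, an interleukin 1 family member, was nearest at 0.24 log2 units, with 57.7 and 132.1 on TCDD 1 and 2, against 162.7 and 347.4 on controls 1 and 2. The median distance was 1.74. The patterns most like Itgae were those of Topors, Gnai3, Cnot6, Pdpk1 and Pgs1, at distances of 0.031 to 0.0709, against a median of 0.727. With 4 arrays such likeness is a description, and flat patterns lie close to many others.

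The comparison of back skin with the preparation for which no site was named asked whether the integrins differed with the origin of the cells or with the experiment, which the labels do not separate. Of the 10 tested member probe sets, 0 passed the test, as did 0 of all 13576 (0%; limma, adjusted p under 0.05). At an unadjusted p under 0.05 there was 1 of the 10, Itgb7, against 274 of 13576 (2.02%). The adjusted p was 0.9994 for each of the 10. In the fit without TCDD 1 and without the treatment term, the number of all probe sets that passed moved away from 0. That fit leaves 1 array with no site named. The median reach of a 95% interval to one side was 0.83 log2 units.

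Among the 10 tested member probe sets Itgb7 had the highest difference, with 136.3 on TCDD 2 and 364.9 on control 2 in back skin, against 72.4 on TCDD 1 and 167.1 on control 1 with no site named. The ranges overlapped, which they had to, because both TCDD arrays lay below both controls, the arrangement seen when Itgb7 was chosen. Within each treatment back skin was the higher, by 0.91 between the TCDD arrays and 1.13 between the controls on the log2 scale. The log2 difference was 1.02 ± 0.41 (SE, n = 2 per group; 95% interval 0.08 to 1.96; limma, adjusted p = 0.9994). In fits that also drop the treatment term, leaving out control 2 gave 0.31 and leaving out TCDD 1 gave 0.42, whereas leaving out control 1 gave 1.62 and TCDD 2 gave 1.73. Itgb7 also varied most among the tested members, by a factor of 5.04 between its highest and lowest array, against 1.22 to 2.49 for the other 9. A factor at least that of Itgb7 was found for 198 of the 13576 tested probe sets (1.46%). This factor sets control 2 against TCDD 1 and so includes the TCDD difference on which Itgb7 was chosen. Nothing is read from that share.

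Itgae differed the other way, with 100.5 on TCDD 2 and 142.8 on control 2 in back skin, against 165.8 on TCDD 1 and 149.2 on control 1. Both back skin arrays lay below both others, with a log2 difference of -0.39 ± 0.45 (SE, n = 2 per group; 95% interval -1.42 to 0.63; limma, adjusted p = 0.9994). The same arrangement held for 3 of the 10 tested member probe sets, Itgae, Itga4 1421194_at and Itgb1 1426918_at, against a background of 15.9%. The opposite one held for 1, Itgav 1452784_at, against 16.1%. Itgb1 1426918_at had a log2 difference of -0.42 ± 0.34 and Itga4 1421194_at of -0.29 ± 0.34 (limma, adjusted p = 0.9994 for both). Itgav differed by 0.21 ± 0.32, with a 95% interval of -0.51 to 0.93.

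The leukocyte integrins differed little between preparations relative to their error. The log2 difference was -0.12 ± 0.42 for Itgax (95% interval -1.09 to 0.85), 0.02 ± 0.42 for Itgal (-0.94 to 0.98) and -0.15 ± 0.34 for Itgb2 (-0.92 to 0.62). The interval of Itgal thus includes differences of nearly 1 log2 unit in either direction. The median over the 10 tested member probe sets was -0.14, against 0.01 over all tested probe sets.

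**Figure D3:**
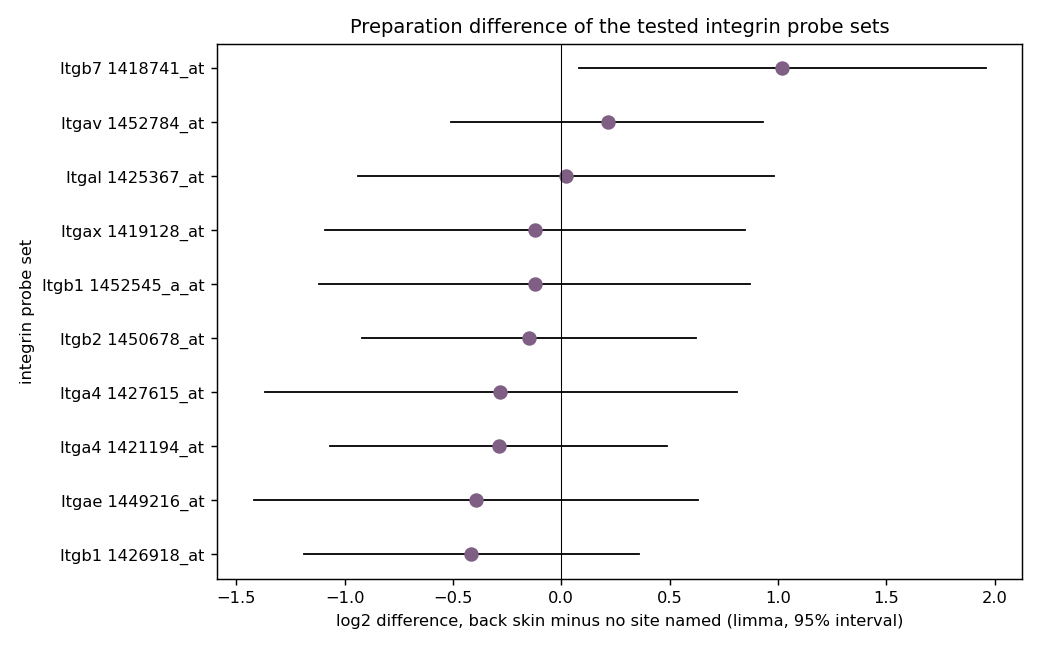
Log2 difference of back skin minus no site named (points) with 95% intervals from limma (lines) for the 10 tested integrin probe sets, n = 2 arrays per preparation. The interval of Itgb7 runs from 0.08 to 1.96 before adjustment over all probe sets, and the other 9 include 0.

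T cells of the epidermis are known to carry alpha E and beta 7, so their markers were set beside Itgb7 and Itgae. Cd3e, part of the CD3 complex of the T cell receptor, read 386.9 and 112.7 on TCDD 1 and 2, against 197.5 and 471.3 on controls 1 and 2. Cd3g, another chain, read 234.3 and 89.5, against 71 and 471.4, and Thy1 read 169.4 and 105.8, against 108.8 and 252.5. The summed signal of the 17 listed markers with a probe set was 3111 and 2355 on TCDD 1 and 2, against 2279 and 3995 on controls 1 and 2. The sum, which includes 7 markers below the filter, was highest on control 2 and second highest on TCDD 1. Itgb7 was highest on control 2 and lowest on TCDD 1. Of the 10 markers above the filter, 6 read higher on TCDD 1 than control 1 but lower on TCDD 2 than control 2, 1 had both TCDD arrays below both controls and 1 both above, and the median log2 difference was -0.27. Over all 8413 genes the shares were 14.1% below and 11.4% above. Not all markers followed Cd3e. Txk, a T cell kinase, had the largest TCDD difference of the 10 above the filter, 1.19 ± 0.56. It read 186 and 195 on TCDD 1 and 2, against 158.9 and 44.1 on controls 1 and 2. Txk was thus lowest on control 2, as was Zap70, another T cell kinase that is named here after its values were seen, with 856.7 and 947.6, against 875.4 and 759.4. Cd247, the CD3 zeta chain, differed by -0.70 ± 0.46 and Cd5, a T cell surface receptor, by -0.67 ± 0.42. Cd5 read 94.7 and 153.9 on TCDD 1 and 2, against 142.4 and 257.5 on controls 1 and 2. Like Itgb7, it was lowest on TCDD 1 and highest on control 2. Klrk1, the NKG2D receptor, read 220 and 109.4, against 47 and 288.1. The defining marker Cd3d, named here after its values were seen, was below the filter and read 18.1 and 6.4, against 5.9 and 36. The part of such cells in the Itgb7 values was not tested.

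**Figure D4:**
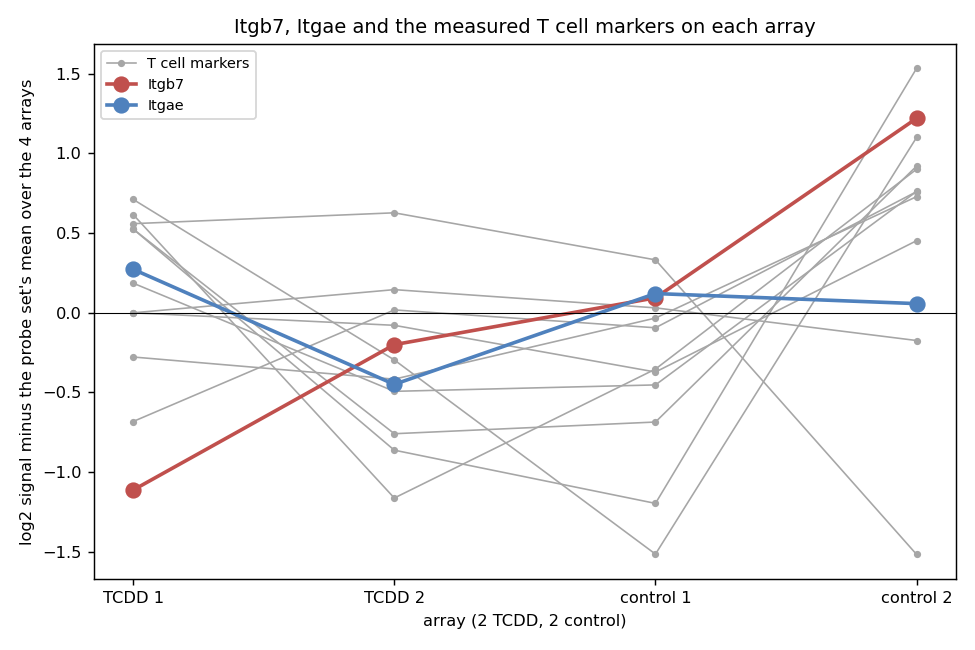
Log2 signal on each array minus the mean of the same probe set over the 4 arrays, for Itgb7 (red), Itgae (blue) and the 10 T cell markers above the filter (grey); lines join the values of 1 probe set. On TCDD 1 Itgb7 (72.4) and Cd5 (94.7) are at their lowest while Cd3e (386.9 there, against 197.5 on control 1) is not. On control 2 Itgb7 and markers such as Cd3e (471.3), Cd3g (471.4) and Thy1 (252.5) are at their highest, whereas Txk (44.1) and Zap70 (759.4) are at their lowest.

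Mast cells are known to carry beta 7 as well. Cpa3, a mast cell protease, read 177.9 and 206.1 on TCDD 1 and 2, against 175.5 and 190.7 on controls 1 and 2. Kit, their growth factor receptor, read 281 and 124, against 381.1 and 205.4. The summed signal of the 11 markers with a probe set was 1749 and 1843 after TCDD, against 1745 and 1696 in the controls. The part of such cells in the Itgb7 values was not tested. Of the 7 markers measured, 0 had both TCDD arrays below both controls and 1 had both above (14.1% and 11.4% of all genes), with a median log2 difference of 0.07. Of the mast cell tryptases and chymases, Tpsab1 differed by -0.60 ± 0.38, Tpsb2 by 0.46 ± 0.45 and Cma1, the one with both TCDD arrays above, by 0.38 ± 0.47 on the log2 scale.

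Neutrophils and monocytes carry alpha M and beta 2. S100a8, a neutrophil marker, read 14.2 and 26.4 on TCDD 1 and 2, against 18.3 on both controls, below the 20th percentile of each array. The summed signal of the 11 markers with a probe set was 1645 and 1574 after TCDD, against 1499 and 1965 in the controls. Of the 5 measured, 0 had groups that did not overlap, against 14.1% lower and 11.4% higher of all genes (median log2 difference -0.16). Csf3r, the G-CSF receptor, differed by -0.41 ± 0.42, Lyz2 (lysozyme) by -0.35 ± 0.47, Cd14 by -0.16 ± 0.38 and Ngp by -0.01 ± 0.41. The part of such cells in the Itgam and Itgb2 values was not tested.

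Among basal keratinocyte markers, Krt5 read 72.5 and 156 on TCDD 1 and 2, against 83.7 and 211.5 on controls 1 and 2, and Krt14 read 172.6 and 249.5, against 176.6 and 166.1. Their summed signal over 10 markers was 1345 and 1644 after TCDD, against 1525 and 1677. Of the 5 measured, 1 had both TCDD arrays below both controls and 0 above, against 14.1% and 11.4% of all genes (median 0.05). That gene was Dst (dystonin), at -0.50 ± 0.35 on the log2 scale. The fibroblast and endothelial markers summed to 1438 and 1264, against 1407 and 1623, and of the 5 measured 1 was lower and 1 higher on both TCDD arrays, against the same shares of all genes (median -0.06). Emcn (endomucin) was the lower one, at -0.62 ± 0.48, and Tek, the angiopoietin receptor, the higher one, at 0.53 ± 0.46. Col1a1 differed by -0.27 ± 0.44 and Kdr, a VEGF receptor, by 0.21 ± 0.36.

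Other chains that pair with the members were measured in part. Of 16 other integrin genes listed, 11 had a probe set and 6 lay above the filter. Itgb5, a partner of alpha V, read 634.5 and 765.4 on TCDD 1 and 2, against 636.3 and 791.7 on controls 1 and 2, a log2 difference of -0.03 ± 0.34 (SE, n = 2 per group). Itgb3, another partner of alpha V, read 18.4 and 21.9, against 12.9 and 30.4, and was not tested. Itga5, the fibronectin receptor chain that pairs with beta 1, was the only one of the 6 with both TCDD arrays below both controls (117 and 180.4, against 197.4 and 205.5), a background of 14.1% of 8413 genes taken by their brightest probe set. Itga9, a partner of beta 1, had the largest TCDD difference of the 6, 0.55 ± 0.43, and read 178.4 and 362.8 on TCDD 1 and 2, against 190.8 and 158.8 on controls 1 and 2. Itga2, a collagen receptor chain, differed by -0.29 ± 0.39, Itga2b, the platelet chain, by -0.10 ± 0.35, and Itga3, a laminin receptor chain, by 0.08 ± 0.34. None of the 6 passed for TCDD or for the preparation (limma, adjusted p under 0.05), which follows from 0 of all 13576 probe sets passing.

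Itgb4, the hemidesmosome chain of basal keratinocytes that pairs with alpha 6, lay below the filter. It read 116.7 on TCDD 2 and 105.5 on control 2 in back skin, against 27.5 on TCDD 1 and 24.7 on control 1 with no site named. Both back skin arrays lay above both others, and the arrays without a site name lay below the 20th percentile. Krt5 shared the direction, with 156 and 211.5 in back skin, against 72.5 and 83.7, a log2 difference of 1.22 ± 0.47 (SE, n = 2 per group; limma, adjusted p = 0.9994). Of the 5 basal keratinocyte markers measured, only Krt5 had both back skin arrays above both others, and 0 had both below. The share of all genes was 16.6% each way. The median log2 difference of the 5 was 0.14, and Dst (-0.18) and Perp (-0.14) had the opposite sign.

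Ligands of the members were measured for 13 of 17 listed genes. Cdh1 (E-cadherin), the ligand of alpha E beta 7 that Langerhans cells themselves also carry, read 206.6 and 137.8 on TCDD 1 and 2, against 152.5 and 166.2 on controls 1 and 2, a log2 difference of 0.08 ± 0.42 (SE, n = 2 per group). Icam1, a ligand of the beta 2 integrins, read 10350 and 14510, against 14890 and 12620. Vcam1, a ligand of alpha 4 beta 1, read 123.9 and 63.5, against 157.2 and 148.7, with a log2 difference of -0.79 ± 0.49. Madcam1, a ligand of alpha 4 beta 7, read 171.7 and 124.8, against 150.7 and 230.6. Fn1 (fibronectin), a ligand of alpha 4 beta 1 and alpha V integrins, differed by 0.39 ± 0.41, and F11r (JAM-A), a ligand of LFA-1, by -0.34 ± 0.35. Of the 13, 2 had both TCDD arrays below both controls and 1 both above (background 14.1% and 11.4% of genes), and their log2 differences had a median of -0.14. None passed in either comparison (limma, adjusted p under 0.05), as was so for all 13576 tested probe sets.

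The machinery that activates integrins was measured for 21 of 30 listed genes, with a median log2 difference of -0.03. Tln1 (talin), which binds beta chain tails, read 497.1 and 603.9 on TCDD 1 and 2, against 851.7 and 433.8 on controls 1 and 2. Fermt3 (kindlin-3), the leukocyte coactivator, read 871.2 and 1194, against 1096 and 833.8, a log2 difference of 0.09 ± 0.37 (SE, n = 2 per group). Vcl (vinculin), a linker to actin, had both TCDD arrays above both controls (3774 and 3757, against 3208 and 3029), a log2 difference of 0.27 ± 0.32. Ilk, an adaptor of beta chain tails, differed by 0.25 ± 0.35, Zyx (zyxin) by 0.19 ± 0.38 and Actn1 (alpha-actinin), a crosslinker of actin, by 0.08 ± 0.30. Vcl was the only gene of the 21 above on both, and 3 were below on both (11.4% above and 14.1% below of all genes). In either comparison 0 of the 21 passed, as did 0 of all 13576 probe sets (limma, adjusted p under 0.05). Ptk2b (Pyk2), an adhesion kinase, spread most of those named, with 194.3 and 166.8 on TCDD 1 and 2, against 368.9 and 41.7 on controls 1 and 2.

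TGF-beta is known to induce Itgae, and 13 of 17 listed genes of its pathway and related regulators were measured. Of these, 5 had both TCDD arrays below both controls and 2 both above (14.1% and 11.4% of all genes), with a median log2 difference of -0.04. For TCDD 0 of the 13 passed, as did 0 of all 13576 probe sets (limma, adjusted p under 0.05). Tgfbr2, the type II receptor, read 465 and 538.3 on TCDD 1 and 2, against 786.3 and 658 on controls 1 and 2, a log2 difference of -0.52 ± 0.35 (SE, n = 2 per group). The signal transducers Smad2 and Smad3 were also below on both arrays, with log2 differences of -0.43 ± 0.34 and -0.54 ± 0.41, and Runx1, a RUNX factor, was above on both, 0.46 ± 0.36. Tgfbr1, the type I receptor, differed by -0.04 ± 0.34 and Tgfb1, the ligand, by -0.13 ± 0.48. Tgfbr3 (betaglycan), a coreceptor, differed by 0.34 ± 0.51. Runx3, a RUNX factor that Langerhans cells need, lay below the filter with 36.2 and 70.7, against 30.6 and 107.7. The direction of Itgae itself differed between preparations, as given above.

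Of the listed Langerhans cell markers, 2 of 11 (Epcam and Csf1r) were below and 1 (Cd24a) above on both TCDD arrays, against 14.1% and 11.4% of all genes, with a median log2 difference of 0.08. H2-Eb1, an MHC class II chain, had the largest difference of these 11, 0.63 ± 0.59. It read 5980 and 3972 on TCDD 1 and 2, against 1404 and 7042 on controls 1 and 2. H2-Aa, another, differed by 0.22 ± 0.32, Cd24a by 0.45 ± 0.34 and Il1r2, the decoy receptor of interleukin 1, by -0.33 ± 0.60.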

How the data were processed

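The authors deposited linear signal intensity values for each probe set on each array, made with affy and MAS5 per the submitters' processing notes. The versions used, any detection calls and the background method: not given in the sources used here. Each of the 4 columns had a mean of 500 after trimming 2% at each end. Of 22690 probe sets, 64 Affymetrix controls were set aside, and of 22626 others 20380 had 1 gene symbol in the platform annotation, 691 several and 1555 none. All 10 members matched RefSeq (GRCm38.p6) by gene ID. The arrays name no genome build; only start-site windows carry coordinates.

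Signals were taken to log2 without further normalization. The 13576 probe sets at or above the 40th percentile of mean log2 signal (6.85) were fitted in R 4.3.3 by limma 3.58.1. The model had additive terms for preparation and treatment and an intensity trend in the variance, and p-values were adjusted by Benjamini-Hochberg at 0.05. It leaves 1 residual degree of freedom. The fit was tested on simulated data. The number of arrays limits the precision. Nothing in the labels says whether arrays come from separate animals, so p-values and errors cover only how these samples vary, possibly for technical reasons. The members and all gene lists were chosen with earlier results of these data known. All member probe sets are named, with a preset set of list genes where measured, list genes with the largest differences, and the 5 nearest patterns of Itgb7 and Itgae. Genes of a list are taken by their brightest probe set.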

Additional observations from a re-analysis of the deposited data

Results flagged for a closer look

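The log2 ratio of TCDD to control went opposite ways in the 2 preparations for the representative tested probe sets of 3 members, each from 1 pair of arrays, and the difference between the preparations was not tested. Opposite signs were found for 59.3% of all tested probe sets, so the count itself is not unusual. For Itgae the back skin ratio minus the ratio with no site named was -0.66, from -0.51 and 0.15. For Itgb2 it was -0.34, from -0.32 and 0.02. For Itgav it was -0.14, from -0.08 and 0.06.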

How the results depend on the processing

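Over all probe sets, 0 passed in either comparison (limma) under quantile normalization, median centring, no filter, a 60th percentile filter and log2(signal + 32). The same held with no variance trend and with the other factor dropped, the preparation for TCDD and the treatment for the preparation. At an unadjusted p under 0.05 (limma) there were 96 to 514 for TCDD and 167 to 621 for the preparation. Without 1 array each, in fits that drop the other factor and assume that a lone array varies like the others, 0 to 285 probe sets passed for TCDD (285 without control 2, 12 without control 1) and 0 to 89 for the preparation (89 without TCDD 1). No paired analysis was possible beyond the preparation as a block, because the labels give no replicate numbers. Leaving that block out changed no TCDD call. For Itgb7 the TCDD difference stayed negative, between -1.88 and -0.75 without 1 array and at -1.08 with log2(signal + 32). In the preparation comparison no member passed under any alternative. There the sign turned for Itgal under quantile normalization (-0.052), median centring (-0.042) and without control 1 (-0.41) or TCDD 2 (-0.045), within a range of -0.41 to 0.45 without 1 array. Without TCDD 2 it turned for Itgax (range -0.62 to 0.38) and Itgb2 (-0.31 to 0.0094). Of the members below the filter, Itgam turned from -0.027 to 1.0 without control 1 and to 0.19 without TCDD 2. Itga6 turned from -0.48 to 0.088 without control 1 and to 0.36 without control 2. The cause was not tested. The 60th percentile filter left out the dimmer members, which then have no value. Signals near or below the filter level, such as those of Itgae and those of Itgb7 after TCDD, limit what can be read from them.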
